A study of Homo sapiens with 18 samples.

Results

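In Kasumi-1 cells, 2284 sites called by both an anti-ETO and an anti-Flag antibody in control cells kept an anti-ETO call and had no anti-Flag call after knockdown of the microRNA miR-130a. They are called ETO-retained intervals here. They were chosen from the 3059 intervals that the authors listed as unique to control cells: each overlapped a knockdown anti-ETO peak by at least 1 bp and overlapped no knockdown anti-Flag peak. They made up 74.7% of the control-unique list and 18.6% of the 12247 control intervals called by both antibodies. Of the other control-unique intervals, 617 had no knockdown call of either antibody, 97 had a knockdown anti-Flag call only and 61 had calls of both. Over all 12247 control intervals, 2410 (19.7%) had the same combination of knockdown calls. These calls chose the intervals, so the counts are a description and carry no test.

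Kasumi-1 is an established human acute myeloid leukaemia line with a translocation that joins RUNX1 (also called AML1) to RUNX1T1 (also called ETO). The cells used here expressed AML1-ETO with a Flag tag, and cells of both conditions were sorted on a green fluorescent marker 3 days after transduction, as control or as miR-130a knockdown. Binding was profiled by CUT&RUN, in which a nuclease is tethered to an antibody inside permeabilised cells and the DNA it cuts free is sequenced. There were 6 groups of 3 libraries, made with anti-ETO, anti-Flag M2 or mouse IgG in each condition, from 200000 cells per condition. The values used were lists of peak positions, 1 per condition for anti-ETO and for anti-Flag, with no height, score or value per library. So the depth of a call is not known and replicate spread cannot be given, and the tests compare sets of peaks, not libraries. A missing call means that no peak was listed at that place. A call that fell just short of the authors' threshold and a site without signal cannot be told apart in these lists.

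AML1-ETO keeps the DNA-binding Runt domain of RUNX1, which recognises short RUNX motifs, and most of ETO, which recruits NCoR and HDAC corepressors. It binds with CBFB, E proteins such as TCF12 and haematopoietic factors such as ERG and FLI1, and it is known for repressing myeloid differentiation genes. An antibody against ETO can also recognise ETO that is not part of the tagged protein, while an antibody against Flag recognises the tag alone. The anti-ETO and anti-Flag lists are thus separate readouts that both include the tagged fusion.

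Promoters make up the largest class of ETO-retained intervals by position, so the promoter sequences of 7 of them are shown first. Each is the window from 250 bases before to 50 bases after a gene's start in RefSeq (GRCh38.p14), written 5′ to 3′ on the gene's strand. Each lies wholly inside an ETO-retained interval. NAA50 (chr3:113746200-113746499, minus strand), KLF12 (chr13:74134355-74134654, minus) and DIPK2A (chr3:143971548-143971847, plus) belong to the widest intervals that overlap a window holding a searched motif. DHX30 (chr3:47802888-47803187, plus) is a further one of these and is shown because it holds an ETS motif. TCF12 (chr15:56918394-56918693, plus), HDAC3 (chr5:141636800-141637099, minus) and CEBPB (chr20:50190580-50190879, plus) are shown as genes of the lists described below. Those lists hold AML1-ETO partner factors, corepressors, and myeloid and erythroid transcription factors. These genes were chosen after their values were seen. Capitals mark matches of the motifs described further on: GGGCGG (GC box), TGTGGT (RUNX), CCGGAAGT (ETS) and CCAAT, or their reverse complements.
NAA50: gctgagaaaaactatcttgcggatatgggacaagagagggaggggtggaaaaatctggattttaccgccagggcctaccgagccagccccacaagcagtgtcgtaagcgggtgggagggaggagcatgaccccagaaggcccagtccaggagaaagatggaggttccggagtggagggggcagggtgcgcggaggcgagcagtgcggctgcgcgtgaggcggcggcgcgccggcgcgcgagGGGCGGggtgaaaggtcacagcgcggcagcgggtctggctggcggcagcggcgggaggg
KLF12: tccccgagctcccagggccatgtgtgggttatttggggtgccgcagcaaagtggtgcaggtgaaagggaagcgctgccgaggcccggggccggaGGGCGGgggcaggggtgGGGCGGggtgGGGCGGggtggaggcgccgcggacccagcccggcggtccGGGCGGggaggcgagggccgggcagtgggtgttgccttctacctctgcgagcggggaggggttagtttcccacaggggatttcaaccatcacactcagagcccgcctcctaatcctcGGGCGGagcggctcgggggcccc
DIPK2A: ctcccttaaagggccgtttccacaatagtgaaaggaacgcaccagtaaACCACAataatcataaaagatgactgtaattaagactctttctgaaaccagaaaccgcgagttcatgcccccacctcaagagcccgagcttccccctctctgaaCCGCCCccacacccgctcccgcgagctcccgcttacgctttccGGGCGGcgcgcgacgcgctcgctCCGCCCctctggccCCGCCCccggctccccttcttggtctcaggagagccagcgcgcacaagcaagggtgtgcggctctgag
DHX30: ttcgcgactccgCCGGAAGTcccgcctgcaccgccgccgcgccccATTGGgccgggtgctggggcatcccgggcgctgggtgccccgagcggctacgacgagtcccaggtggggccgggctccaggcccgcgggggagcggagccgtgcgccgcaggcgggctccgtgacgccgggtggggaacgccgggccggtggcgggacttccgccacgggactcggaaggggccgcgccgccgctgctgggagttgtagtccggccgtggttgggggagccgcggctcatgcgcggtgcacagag
TCF12: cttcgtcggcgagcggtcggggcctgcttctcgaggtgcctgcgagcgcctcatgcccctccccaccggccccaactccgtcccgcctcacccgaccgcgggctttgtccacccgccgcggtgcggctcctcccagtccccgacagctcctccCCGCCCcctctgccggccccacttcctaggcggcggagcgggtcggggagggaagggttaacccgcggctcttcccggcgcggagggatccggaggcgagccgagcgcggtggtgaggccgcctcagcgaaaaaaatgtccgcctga
HDAC3: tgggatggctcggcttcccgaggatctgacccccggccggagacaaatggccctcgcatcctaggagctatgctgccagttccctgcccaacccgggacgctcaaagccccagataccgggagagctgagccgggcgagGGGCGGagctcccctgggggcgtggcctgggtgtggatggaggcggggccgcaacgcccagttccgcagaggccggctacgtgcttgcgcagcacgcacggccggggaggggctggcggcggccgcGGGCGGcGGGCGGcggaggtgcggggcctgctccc
CEBPB: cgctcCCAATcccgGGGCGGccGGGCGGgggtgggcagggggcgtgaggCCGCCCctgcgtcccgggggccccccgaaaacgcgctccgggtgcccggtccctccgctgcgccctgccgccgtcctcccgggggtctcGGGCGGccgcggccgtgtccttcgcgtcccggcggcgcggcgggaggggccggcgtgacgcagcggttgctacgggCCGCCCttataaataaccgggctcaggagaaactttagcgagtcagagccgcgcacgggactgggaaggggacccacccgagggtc
Only the DIPK2A window of these 7 holds the RUNX motif TGTGGT, with 1 match beside 4 GC boxes. The KLF12 and CEBPB windows hold 5 GC boxes each, that of HDAC3 holds 3, and those of NAA50 and TCF12 hold 1 each. The DHX30 window holds 1 ETS match and 1 CCAAT box and no GC box.

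ETO-retained intervals were narrow peaks. Their width ran from 176 to 2829 bp with a median of 486.5 bp, with quartiles at 360 and 672.2 bp. The 617 intervals without any knockdown call had a median width of 415 bp. The 9199 control intervals that overlapped a knockdown interval called by both antibodies, called found again here, had a median of 811 bp. At the ETO-retained intervals the median peak width was 390 bp for control anti-ETO, 414.5 bp for control anti-Flag and 425 bp for knockdown anti-ETO. Control anti-Flag was the wider of the control peaks at 53.11% of ETO-retained and 65.64% of found-again intervals.

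The narrower a site was in control cells, the more often it was an ETO-retained interval. Among control intervals called by both antibodies, 33.6% of those in the narrowest of 4 equal classes of control anti-Flag width (170 to 392 bp) were ETO-retained, with a 95% Wilson interval of 31.9% to 35.3%. The share was 24.98% in the next class, 13.3% in the one after it and 2.65% (2.14% to 3.28%) in the widest, from 995 bp upwards. The same 4 classes by control anti-ETO width gave 30.5%, 24.1%, 16.4% and 3.56%. In the narrowest anti-Flag class the share was 36.5% (34.3% to 38.8%) at gene starts and 29.3% (26.8% to 31.8%) elsewhere. In the widest it was 1.89% (1.32% to 2.70%) at gene starts and 3.28% (2.46% to 4.35%) elsewhere. These confidence intervals cover counting error over peaks only. A wider interval has more room to touch a knockdown anti-Flag peak, which the choice excluded. The choice by itself thus favours narrow sites, and its part in the fall was not tested.

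**Figure D1:**
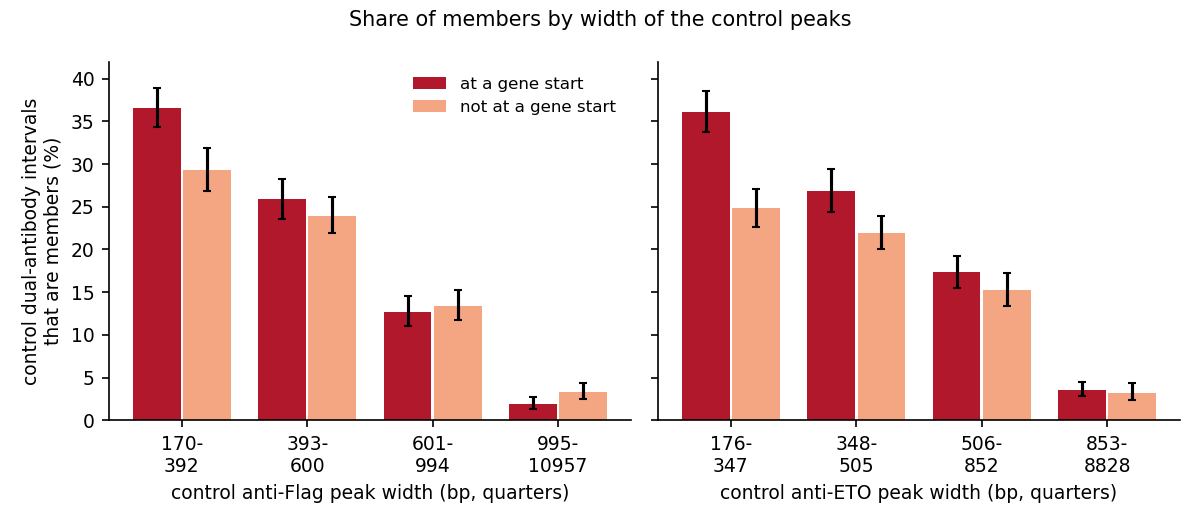
Share of control intervals called by both antibodies that were ETO-retained (members, y axis, percent), by class of control peak width (x axis, bp). The 4 equal classes are of anti-Flag width on the left and anti-ETO width on the right, at gene starts and elsewhere. Error bars are 95% Wilson limits. By anti-Flag width the share falls from 36.5% and 29.3% in the narrowest class to 1.89% and 3.28% in the widest. The choice by itself favours narrow sites.

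The overlap with a knockdown anti-ETO peak was fixed by the choice, so the placement of that peak is given as a description only. At 2203 intervals a single knockdown anti-ETO peak overlapped, and at 81 there were 2 or 3. The centres of the control and knockdown anti-ETO peaks lay a median of 50.5 bp apart, and at most 100 bp apart at 1537 intervals (67.3%). Knockdown anti-ETO peaks covered a median of 89.0% of the interval, and at least 50% of it in 1954 cases (85.6%). In 5 cases the knockdown anti-ETO peak reached out of the interval to a knockdown anti-Flag peak. There were 13 knockdown anti-ETO peaks that each spanned more than 1 ETO-retained interval, 26 intervals in all.

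The knockdown anti-ETO peak was about as wide as the control one. The median ratio of knockdown to control anti-ETO width was 1.04 (95% interval of the median over peaks 1.03 to 1.06), and the knockdown peak was the wider at 1312 intervals (57.4%). At found-again intervals the median ratio was 1.30 (1.28 to 1.31) and the knockdown peak was wider at 80.6%. The gap was present in each class of control width that ETO-retained intervals span. With control anti-ETO peaks of 176 to 230 bp the median ratio was 1.37 at ETO-retained and 2.37 at found-again intervals. At 231 to 390 bp the medians were 1.13 and 1.77, at 391 to 517 bp 1.00 and 1.34, and at 518 to 2113 bp 0.933 and 1.19. Found-again intervals with wider control anti-ETO peaks are not in these classes. These widths come from a list that the choice of both sets used, so no test is given. The intervals of the medians describe spread over peaks, not over libraries, and do not compare the sets. The knockdown anti-ETO list was longer than the control one on each of the 23 chromosomes, by 1.22 to 1.82 times, and the part of list length in these widths was not tested. With knockdown lists shortened to their widest peaks, the ratio at ETO-retained intervals lay between 1.17 and 1.30. Keeping the widest knockdown peaks itself favours a higher ratio, so this rise cannot show the part of list length.

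**Figure D2:**
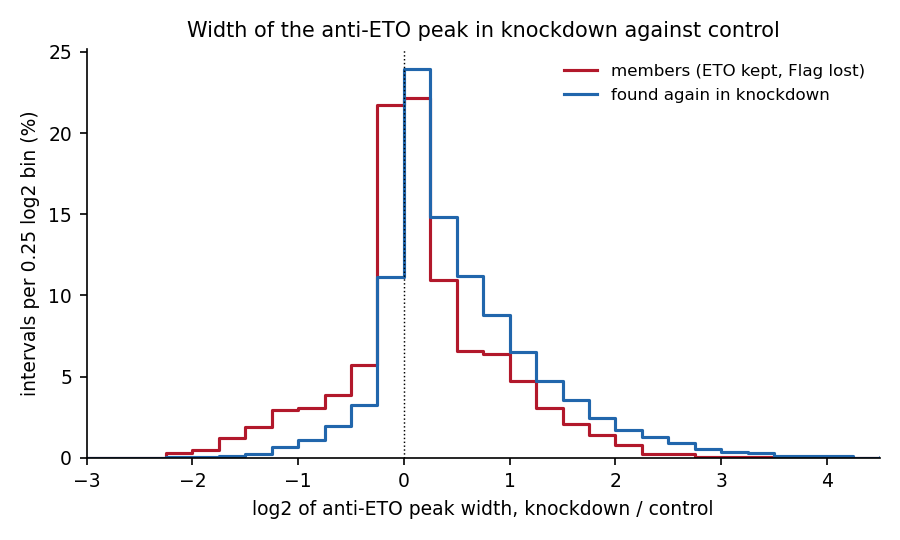
Distribution of the log2 ratio of knockdown to control anti-ETO peak width (x axis) at ETO-retained (members) and found-again intervals, as percent of each set (y axis); the dotted line marks equal width. ETO-retained intervals centre near equal width (median ratio 1.04) and found-again intervals lie to the right of it (1.30).

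The choice left out every interval that overlapped a knockdown anti-Flag peak, so distances to that list are given as a description with no test. The nearest such peak lay a median of 24551 bp away, more than 10 kb away for 1356 intervals (59.4%) and more than 1 Mb away for 109. At the other end, 332 intervals (14.5%) had an anti-Flag peak within 500 bp and 6 had one within 100 bp. The intervals without any knockdown call had a median distance of 28543 bp, with 11.7% within 500 bp and 63.4% beyond 10 kb. Within ETO-retained intervals, 220 of the 1191 at gene starts (18.5%) lay within 500 bp of a knockdown anti-Flag peak, and 10.2% of those elsewhere. Requiring no anti-Flag peak within 500 bp left 1952 intervals with a median distance of 43459.5 bp.

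**Figure D3:**
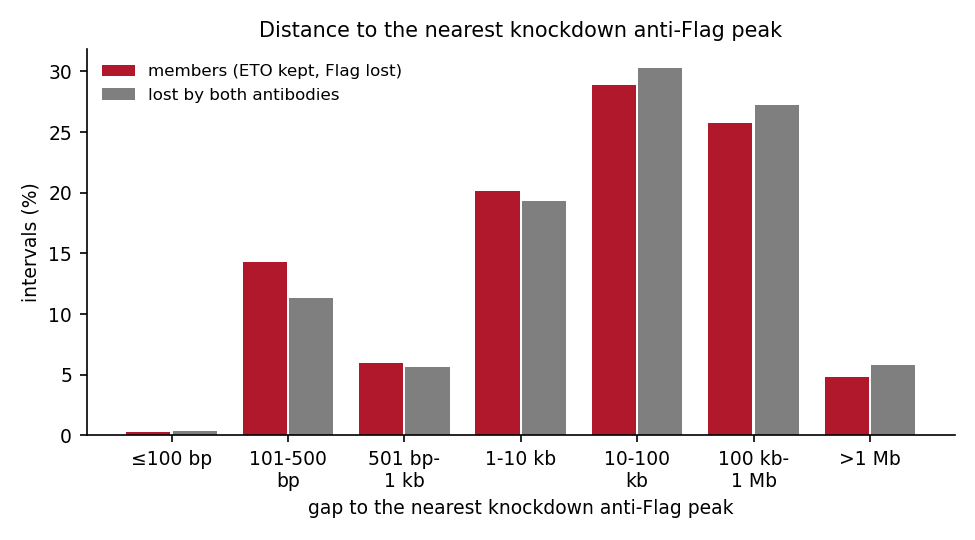
Distance from each interval to the nearest knockdown anti-Flag peak (x axis, classes of bp) as percent of each set (y axis), for ETO-retained intervals (members) and control-unique intervals without a knockdown call. Both sets have most of their intervals beyond 10 kb (59.4% and 63.4%).

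The values next to the limits of the choice were as follows, with no test. The smallest overlaps with knockdown anti-ETO that still counted were 17 bp near MTG2, 32 bp near ATP1B4 and 57 bp near AMIGO1, and 9 intervals overlapped by less than 100 bp. An interval near BRD9 touched a knockdown anti-Flag peak with a gap of 0 bp, and those near ARRDC2 and ZNF581 missed one by 16 and 26 bp. Just outside, intervals near LOC105377875, PRIMPOL and NFIX-AS1 missed a knockdown anti-ETO peak by 30, 61 and 85 bp. Intervals near PPIF, UBXN1 and MIDEAS were left out for overlaps of 13, 38 and 43 bp with knockdown anti-Flag. Of the intervals without any knockdown call, 146 (23.7%) had a knockdown anti-ETO peak within 500 bp.

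Position relative to genes was not used in the choice and was tested. A centre within 1 kb of a gene start was found for 1191 of 2194 ETO-retained intervals (54.3%, 52.2% to 56.4%), while 29.2% lay elsewhere in a gene and 16.5% outside genes. Chromosome 8, with 90 further intervals, was not used for gene starts. Among control-unique intervals without a knockdown call, 204 of 598 (34.1%) were at a start, 20.2 percentage points fewer (15.8 to 24.4; odds ratio 2.29; two-sided Fisher's exact test, Benjamini-Hochberg adjusted p = 2.5e-18 over 3 comparisons). Across the alternatives its adjusted p lay between 7.2e-21 and 0.0062, and the difference fell to 5.45 points once the knockdown lists were cut by width to the lengths of the control lists, and to 7.34 points with the wider 50% of the lists. The reverse class holds knockdown-unique intervals at which control cells had an anti-Flag but not an anti-ETO call. It had 476 of 2390 (19.9%) at a start. That is 34.4 points fewer than in ETO-retained intervals (31.7 to 37.0, odds ratio 4.78). The adjusted p was 2.8e-131 by the same Fisher's exact test and 1.4e-164 to 3.4e-54 over the alternatives. Both of these classes lacked an anti-ETO call in control or after knockdown, while ETO-retained intervals had it in each. The differences cannot be told apart from where anti-ETO peaks lie in general. Shares at starts over the whole anti-ETO and anti-Flag lists are not given here.

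Against found-again intervals the share at gene starts was not resolved. It was 4616 of 8873 (52.0%), and the difference of 2.26 points (-0.0725 to 4.58) missed the threshold of 0.05 (Fisher's exact test, adjusted p = 0.0593). It depended on the distance that counts as near. Within 0.5 kb of a start the difference was 6.52 points (Fisher's exact test, adjusted p = 3.9e-08), and within 2.5 kb it was -0.759 points (adjusted p = 0.527). Among intervals of 300 to 600 bp, a choice made after seeing the data, it was 4.55 points (Fisher's exact test, adjusted p = 0.014). Without the intervals within 500 bp of a knockdown anti-Flag peak it was -0.153 points (Fisher's exact test, adjusted p = 0.919). All these differences measure nearness from interval centres, and found-again intervals were wider (median 811 against 486.5 bp). Any overlap with a promoter window was found for 43.7% of ETO-retained and 45.2% of found-again intervals. A wider interval overlaps a window more easily, so neither measure is free of width.

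**Figure D4:**
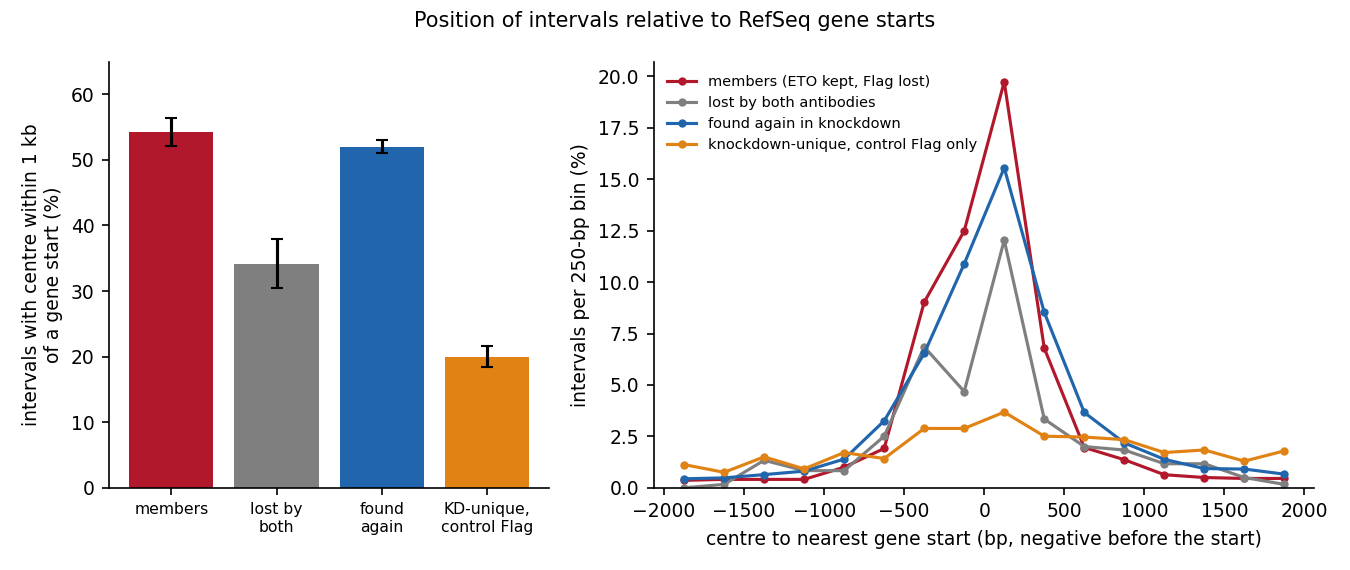
Left, share of intervals at a gene start (centre within 1 kb) for ETO-retained intervals (members) and the 3 classes compared (y axis, percent; error bars are 95% Wilson limits). Right, percent of each class by distance from the centre to the nearest gene start (x axis, bp; negative before the start). The shares at a start are 54.3% for ETO-retained, 34.1% without a knockdown call, 52.0% found again and 19.9% in the reverse class.

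The intervals at starts sat close to them. A total of 710 (32.4%) had a centre within 250 bp of the nearest start, and 655 of the 1191 near a start (55.0%, 52.2% to 57.8%) had a centre inside the gene, with a median position 47.5 bp after the start. Starts on both strands within 1 kb, the layout of a divergent promoter, were found for 334 of the 1191 (28.0%, 25.6% to 30.7%). The shares were 26.4% (25.2% to 27.7%) for found-again intervals and 28.4% (22.7% to 35.0%) for those without a knockdown call, and these confidence intervals overlap. The intervals at starts had a median width of 456 bp, against 512 bp elsewhere in genes and 501.5 bp outside them.

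Of 19259 protein-coding genes with an annotated start outside chromosome 8, 1195 (6.2%) had an ETO-retained interval at a start, and 4033 (20.9%) had a found-again interval there. Any control interval called by both antibodies was at a start of 5186 genes (26.9%). At 992 of the 1195 genes (83.0%) no found-again interval lay at a start of the same gene. Since 20.9% of all 19259 genes had one there, most genes lacked one in any case. Counting the body and 10 kb on either side, 2719 of 19974 protein-coding genes (13.6%) had an ETO-retained interval and 6990 (35%) a found-again one. Of these 2719 genes, 2405 had 1 such interval, 276 had 2 and 35 had 3.

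The promoter windows overlapped by ETO-retained intervals were GC-rich and held motifs of general promoter factors. The intervals overlapped 1277 of 35116 windows (3.64%). Of the 1264 windows with distinct sequence, the median GC content was 67.3%, against 58.7% over all 34943 distinct windows and 68.3% in 5656 windows of found-again intervals. The median observed-to-expected CpG ratio was 0.866, 0.577 and 0.865. Motifs were searched on both strands, and a match is a description of the letters, not of a bound site. The GC box GGGCGG was in 77.1% of ETO-retained windows, 78.0% of found-again windows and 44.9% of all windows. Motifs of the ETS family (CCGGAAGT) were in 9.65% (8.14% to 11.4%), 7.64% (6.97% to 8.36%) and 4.11%. Those of NRF1 (GCGCATGC), a regulator of nuclear genes for mitochondria, were in 7.36%, 5.98% and 3.02%. CCAAT was in 34.3%, 36.1% and 34.7%, CRE (TGACGTCA) in 3.24%, 2.53% and 1.84%, and YY1 (AAGATGGCG) in 3.797%, 3.77% and 1.75%.

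Motifs of the fusion's own DNA-binding domain were in 22.8% of ETO-retained windows (20.6% to 25.2%), taking the motif TGTGGT together with its variant that has a CpG, TGCGGT. The share was 23.6% in found-again windows (22.5% to 24.7%) and 19.6% in all windows. Taken alone, TGTGGT was in 11.8%, 10.5% and 13.1%. The variant TGCGGT was in 12.2%, 14.6% and 7.28%. Motifs of lineage and enhancer factors were less frequent than over all windows. AP-1 (TGANTCA) was in 3.09% of ETO-retained windows and 7.72% of all, the GATA-factor motif AGATAA in 3.40% and 10.4%, and CEBP (TTGCNNAA) in 5.46% and 10.5%. The E-box CAGCTG was in 15.4% and 17.9%. The E-box of the form CAGATG was in 7.83% and 14.7%. Found-again windows had similar values for these (3.57%, 3.25%, 5.76%, 16.8% and 8.81%). GC content differs between these sets and was not matched.

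The share of control intervals that were ETO-retained varied by chromosome, from 11.6% on chromosome 16 to 33.5% on chromosome 13. It was 12.5% on chromosome 19 and 12.7% on chromosome 17, and it was 27.7% on chromosome 7, 26.2% on the X and 25.3% on chromosome 2. The ratio of knockdown to control anti-Flag peak numbers was below 1 on 12 of 23 chromosomes, 0.687 on chromosome 13 and 1.45 on chromosome 11. As a description over 23 chromosomes, the share had a Spearman rho of -0.911 with this anti-Flag ratio and of -0.578 with the number of protein-coding genes per Mb. The first shares the anti-Flag lists with the choice of the intervals.

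**Figure D5:**
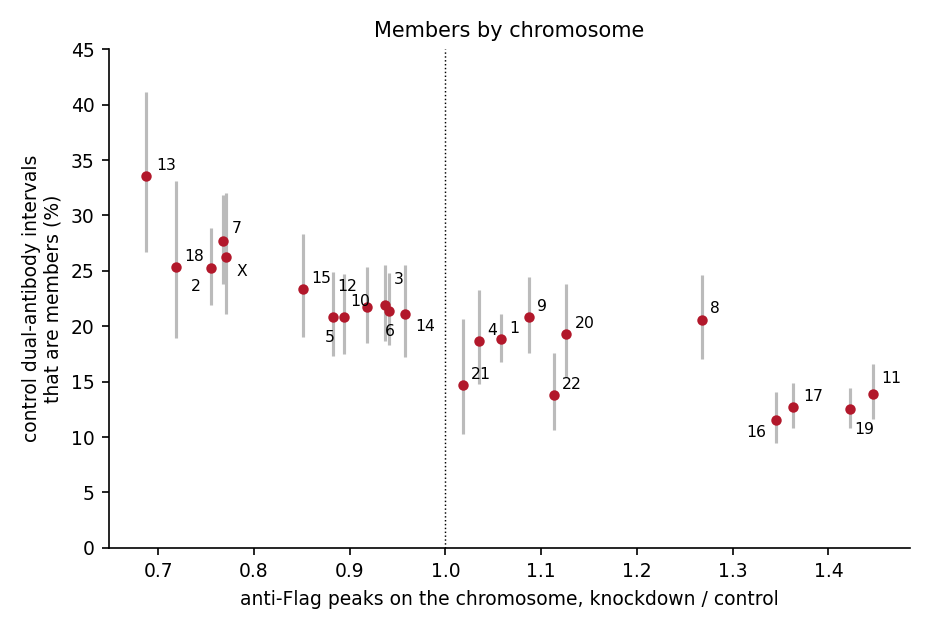
Share of control intervals called by both antibodies that were ETO-retained (members; y axis, percent; bars end at 95% Wilson limits) against the ratio of knockdown to control anti-Flag peak numbers (x axis), 1 point per chromosome. Chromosome 13 (33.5%) has the lowest ratio, 0.687, and chromosomes 16, 17, 19 and 11 lie at ratios above 1.3 with low shares.

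A list of AML1-ETO subunits and partner factors also held related genes such as RUNX2 and RUNX3. Of its 19 genes, 7 (36.8%) had an ETO-retained interval in the body or within 10 kb. A found-again one was at 12 (63.2%), and the shares of all protein-coding genes were 13.6% and 35%. At starts 7 of 18 (38.9%) had a found-again interval, against 20.9% of all genes. An ETO-retained interval was at 1 start of the 18 (5.56%), against 6.2% of all genes. Gene length was not matched. That 1 gene was TCF12, an E protein that binds the fusion. There the control anti-ETO peak was 689 bp, the control anti-Flag peak 355 bp and the knockdown anti-ETO peak 561 bp wide, with no knockdown anti-Flag peak for 673101 bp. In the body of RUNX1 (chr21:34892086-34892865) the 3 widths were 578, 780 and 569 bp, the nearest knockdown anti-Flag peak lay 1563 bp away, and 9 found-again intervals lay in or near the gene. In RUNX2 they were 330, 352 and 389 bp, with 3 found-again intervals. In RUNX3 they were 399, 394 and 180 bp, with a knockdown anti-Flag peak 239 bp away. In FLI1, an ETS factor of the fusion's complex, the widths were 211, 456 and 196 bp, the nearest knockdown anti-Flag peak was 583086 bp away and no found-again interval was present. This interval overlapped knockdown anti-ETO by 95 bp only, so that a minimum of 100 bp leaves it out, and its nearest start is that of SENCR. LDB1, a bridging protein of the complex, and PRMT1, an arginine methyltransferase, had knockdown anti-Flag peaks 301 and 431 bp away. The site at TCF12 thus stood far from any knockdown anti-Flag peak, and those at RUNX3, LDB1 and PRMT1 beside one.

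Of 10 corepressor genes, 2 (20%) had an ETO-retained interval in the body or within 10 kb and 6 (60%) a found-again one. Over all protein-coding genes the shares were 13.6% and 35%. HDAC3, the deacetylase of the NCoR complex, had it at its start (chr5:141636137-141637178), with widths of 516 bp for control anti-ETO, 1034 bp for control anti-Flag and 483 bp for knockdown anti-ETO. HDAC1 had one within 10 kb, with 388, 447 and 417 bp. That interval lies in LOC124903949, and its nearest start is that of MARCKSL1. The ratio of knockdown to control anti-ETO width was 0.936 at HDAC3 and 1.075 at HDAC1.

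Of 16 myeloid and erythroid transcription factor genes, 4 (25%) had an ETO-retained interval in the body or within 10 kb. A found-again one was at 11 (68.8%). Over all protein-coding genes the shares were 13.6% and 35%. CEBPB, which drives granulocytic and monocytic gene expression, had it at its start (chr20:50190543-50191052). The control peaks there were 510 bp wide with both antibodies and the knockdown anti-ETO peak 1290 bp, with the nearest knockdown anti-Flag peak 11009 bp away. IKZF1, the lymphoid and myeloid regulator Ikaros, had 2 intervals in its body, with control anti-ETO widths of 630 and 438 bp and knockdown anti-ETO widths of 223 and 594 bp. IRF8, a regulator of monocyte fate, had 1 within 10 kb, with 528 bp in control and 517 bp after knockdown and a knockdown anti-Flag peak 303 bp away. CEBPD had 2 on chromosome 8, with control anti-ETO widths of 228 and 1217 bp and knockdown anti-ETO widths of 1068 and 1039 bp. The nearest knockdown anti-Flag peak was 223940 and 221004 bp away. The first of these intervals lies in another gene, SPIDR. CEBPB and CEBPD had no found-again interval within 10 kb.

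Of 15 myeloid granule and receptor genes, 4 (26.7%) had an ETO-retained interval within 10 kb and 8 (53.3%) a found-again one, against 13.6% and 35% of all protein-coding genes. At starts it was 0 of 15, beside 6.2% of all genes. The 4 were CSF3R, the receptor of granulocyte colony-stimulating factor (570 bp control and 567 bp knockdown anti-ETO width), FCGR1A, a high-affinity IgG receptor (2 intervals), ITGAM, the CD11b integrin chain (236 and 254 bp), and ELANE, neutrophil elastase (292 and 301 bp). The CSF3R interval lies in MRPS15 and that of ELANE in CFD, so the nearer gene is another one. Of 16 stem and progenitor cell genes, 3 (18.8%) had an ETO-retained interval and 8 (50%) a found-again one. ID1, an inhibitor of E proteins, had it at its start (chr20:31605003-31605443), with 360 bp in control and 183 bp after knockdown. CD34 had it in its body, with 446 and 364 bp, and UBASH3B, a phosphatase, with 450 and 455 bp.

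Of 22 cell cycle genes, 6 (27.3%) had an ETO-retained interval within 10 kb and 13 (59.1%) a found-again one, so that both shares were above those of all genes (13.6% and 35%). The 6 were E2F3 at its start and CCND1, CDK2, E2F1, CCND3 and CDK6 nearby or in the body. The interval counted for E2F1 lies at the start of ACTL10, so the nearer gene is another one. At E2F3 the anti-ETO width was 835 bp in control and 807 bp after knockdown, with a knockdown anti-Flag peak 369 bp away. At CDK6 it was 905 and 614 bp, with 17751 bp to the nearest knockdown anti-Flag peak. Of 18 KLF genes, 3 (16.7%) had an ETO-retained interval and 7 (38.9%) a found-again one. The 3 were KLF12 and KLF9 at starts and KLF2 in its body. Of 21 TGF-beta and SMAD genes 1 (4.76%) had an ETO-retained interval and 9 (42.9%) a found-again one. The former was ACVR1, a BMP type I receptor (287 bp control and 307 bp knockdown anti-ETO width). Of 21 base excision repair genes 5 (23.8%) had an ETO-retained interval and 13 (61.9%) a found-again one. UNG, PARP2 and LIG3 had the former at the start, each with a knockdown anti-Flag distance above 30 kb. Their control and knockdown anti-ETO widths were 573 and 570 bp, 209 and 229 bp, and 383 and 370 bp.

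Several gene lists of cell maintenance had ETO-retained intervals at more starts than the 6.2% over all genes, and the comparison is a description of lists chosen with earlier results known. Proteasome subunits had them at 8 of 39 starts (20.5%), and found-again intervals at 17 (43.6%, against 20.9% of all genes). At 6 of the 8, PSMC3, PSMA3, PSMD11, PSMC4, PSMD2 and PSMB8, a knockdown anti-Flag peak lay 225 to 332 bp away, so that these sites were close to the limit of the choice. PSMA4 and PSMA2 were 219494 and 651103 bp from one. PSMA2 shares its 193-bp interval with MRPL32, a mitochondrial ribosomal protein gene that starts nearby.

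Over all genes, 6.2% had an ETO-retained and 20.9% a found-again interval at a start. Subunits of N-terminal acetyltransferases, which modify nascent proteins, had ETO-retained intervals at 3 of 14 starts (21.4%) and found-again ones at 3 (21.4%). The former were at NAA50, NAA15 and NAA16, with 48941, 637 and 248812 bp to a knockdown anti-Flag peak. The interval at NAA15 is also counted for NDUFC1, a complex I gene. Mediator subunits had ETO-retained intervals at 5 of 29 (17.2%), at MED10, MED12, MED19, MED29 and MED31, and found-again ones at 9 (31.0%). Respiratory complex I subunits had ETO-retained intervals at 6 of 35 (17.1%) and found-again ones at 7 (20%). Mitochondrial ribosomal proteins had ETO-retained intervals at 8 of 74 (10.8%) and cytosolic ribosomal proteins at 6 of 81 (7.41%). Found-again intervals were at 26 (35.1%) and 21 (25.9%). Aminoacyl-tRNA synthetases had ETO-retained intervals at 4 of 35 (11.4%) and V-ATPase subunits at 0 of 18, with found-again intervals at 12 (34.3%) and 5 (27.8%). ZNF zinc finger genes had ETO-retained intervals at 33 of 491 (6.72%), near the share over all genes, with found-again intervals at 130 (26.5%).

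The widest ETO-retained interval, 2829 bp at the start of NAA50 (chr3:113745126-113747954), also reaches ATP6V1A, a V-ATPase subunit. Its control anti-ETO peak was 2113 bp, its control anti-Flag peak 1927 bp and its knockdown anti-ETO peak 1319 bp wide. At KLF12, a transcriptional repressor, the interval (chr13:74133762-74135861) had widths of 1758, 1585 and 1166 bp and no knockdown anti-Flag peak for 1345532 bp. At DIPK2A the 3 widths were 1510, 1186 and 464 bp, and at FAM161A, a ciliary protein gene, 1615, 1860 and 1057 bp. At WASF1, an actin regulator, the anti-ETO widths were nearly equal (1201 and 1190 bp), with 876 bp for control anti-Flag. Among the 10 widest, the knockdown anti-ETO peak was the narrower in 8. The exceptions were an interval in SPIDR on chromosome 8, also counted for CEBPD, and one near TRIM7. The knockdown peak was 1068 bp against 228 bp in control at the former and 1571 against 1207 bp at the latter. Picking by width in control itself favours a narrower knockdown peak. Among all ETO-retained intervals the knockdown peak was the wider at 35.8% with control anti-ETO peaks of 518 to 2113 bp. With control peaks of 176 to 230 bp it was the wider at 75.8%.

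The 5 intervals with the widest knockdown anti-ETO peaks lay under 3 such peaks, and 2 of these peaks spanned 2 intervals each. A peak of 1908 bp spanned both the interval at MRPL36 (control anti-ETO 178 bp) and that at NDUFS6 (600 bp), a complex I gene starting next to it. A peak of 1872 bp spanned 2 intervals at HS3ST3B1, a heparan sulfate sulfotransferase gene (210 and 873 bp). A peak of 1814 bp lay over a single interval, which overlaps the start windows of DEK, a chromatin protein gene, and LOC124901270 (614 bp). The control anti-Flag peaks at these 5 intervals were 310, 638, 457, 573 and 430 bp wide.

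The gene with the most ETO-retained intervals was GPHN, a large gene for the scaffold protein gephyrin, with 5. RPTOR, a component of the mTORC1 kinase complex, and SPTBN1, a spectrin gene, had 4 each. At RPTOR the distances to a knockdown anti-Flag peak were 571 to 6225 bp, and at SPTBN1 135462 to 147741 bp. The 4 control anti-ETO widths at SPTBN1 were 398, 285, 435 and 515 bp, and the knockdown ones 1293, 251, 195 and 698 bp. AARS1 and ACLY were taken from the 35 genes with 3. Long genes have more room for such intervals, and gene length was not matched.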

How the data were processed

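The authors deposited 9 interval lists with 3 columns (chromosome, start, end) and no score: 1 list per condition for anti-ETO and for anti-Flag, and 5 lists derived from those 4. Per the submitters' processing notes, the tools included fastp 0.19.5, Bowtie2 2.3.5, MACS2 2.2.5 and HOMER 4.8, and the builds hg38 and sacCer3, with no role given. The peak threshold, the use of IgG and the handling of the 3 libraries of a group are not given in the sources used here. A missing call and a signal below the threshold therefore cannot be told apart. Positions are those of the deposited lists, with starts counted from 1.

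Intervals were compared in Python 3.11.15 (numpy 2.4.6, pandas 2.3.3) with at least 1 bp of overlap, and 4 of 4 overlap counts were equal in bedtools 2.31.1. Where several peaks of a list overlapped an interval, the widest gave its width. Gene starts came from 35116 RefSeq promoter windows (GRCh38.p14; 27305 symbols), without chromosome 8, and gene bodies from the RefSeq gene table. Shares at starts were tested by Fisher's exact test, two-sided (scipy 1.17.1), adjusted by Benjamini-Hochberg (statsmodels 0.14.6) over 3 comparisons, and carry 95% Wilson intervals. The overlap and gene-start functions were tested on 2000 simulated intervals, and 6 of 6 checks gave the planted answer. Alternatives covered overlap rules, list lengths, chromosomes and gene distances.

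The intervals, the 18 gene lists and the tests were chosen with earlier results of these data known. Named intervals are the 10 widest, the 5 with the widest knockdown anti-ETO peak, those at genes of the lists, the 5 genes with the most intervals, and the 3 nearest to each limit of the choice. Where 35 genes tied, AARS1 and ACLY came first by alphabet. Sequences shown were chosen from windows holding 1 of 13 motifs, widest interval first, plus starts of list genes.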

Additional observations from a re-analysis of the deposited data

How the results depend on the processing

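The differences in the share at gene starts from intervals without a knockdown call and from the reverse class kept their direction and their side of the threshold under every alternative run. The number of ETO-retained intervals was 1017 with the wider 50% of the other condition's lists, 1380 with each knockdown list cut by width to the length of its control list and 1390 with both cut to the shortest list of 14264. The median ratio of anti-ETO widths was then 1.297, 1.167 and 1.167, and the median distance to knockdown anti-Flag 69655.0, 36051.5 and 60944.5 bp. These cuts keep only the widest knockdown peaks, which by itself favours higher ratios and longer distances. An overlap of at least 50% of the interval gave a ratio of 1.087. No anti-Flag peak within 500 bp gave a distance of 43459.5 bp. The difference from found-again intervals at starts was 3.005 points with 50% overlap, 2.981 with protein-coding genes only, 6.521 within 0.5 kb and 4.554 for intervals of 300 to 600 bp (added after seeing the data), all past the threshold, and it reversed to -0.1533 without intervals within 500 bp of anti-Flag and to -0.759 within 2.5 kb. These differences use interval centres, and found-again intervals were wider. The cause was not tested. Genes with an ETO-retained interval numbered 4868 with a flank of 50 kb and 1553 with the gene body only. No paired analysis was possible because the lists name no replicate, and for the same reason no library could be left out. The planned motif search around interval centres was not run without a genome sequence. The lists give no heights or counts, so the part of depth in a missing call was not tested.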

Other observations

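MicroRNA genes were also set against the intervals. Of 1562 hairpins in the RefSeq table, 3 overlapped such an interval, MIR3124, MIR4651 and MIR4515, and 29 (1.86%) lay within 2 kb of one. Found-again intervals, which cover 9.239 Mb against 1.225 Mb, lay within 2 kb of 149 hairpins (9.54%). The gene of the microRNA that was knocked down, MIR130A on chromosome 11, lay 70381 bp from the nearest ETO-retained interval, 25431 bp from the nearest control interval called by both antibodies and 15973 bp from the nearest knockdown one.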
